A study of Mus musculus with 6 samples.

Results

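Integrins are receptors on the cell surface made of 1 α and 1 β subunit, and 9 of their subunit genes that serve the adhesion and homing of blood stem and progenitor cells were followed here: Itga4, Itga5, Itga6, Itgal, Itgam, Itgav, Itgb1, Itgb2 and Itgb7. They were picked by gene name, with earlier results of these data known, as 9 of the 54532 genes measured, and all 9 had a value in every library. RNA-seq had been done on Lin-Sca1+c-Kit+ (LSK) cells, the bone marrow fraction that holds hematopoietic stem cells and multipotent progenitors. The comparison asks how these RNAs differ when Myh9, the gene of the heavy chain of non-muscle myosin IIA, is deleted.

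The 3 control libraries (CTRL) came from Myh9fl/fl;no cre littermates and the 3 Myh9-deficient libraries (cKO) from Myh9fl/fl;Mx1-cre mice, all C57BL/6 and genotyped at 4 to 5 weeks of age. Both groups carried the floxed allele, with loxP sites around an exon of Myh9, and both received poly I:C at 5 mg/kg, in 2 doses by the labels and 3 by the study's methods. LSKs were sorted 4 days after the first injection, 100000 cells for each library. The Mx1 promoter that drives Cre is switched on by interferon and is not limited to blood cells, and only the Myh9-deficient mice carried Cre, so deletion of Myh9 and the presence of Cre cannot be told apart. How many mice went into each set of cells is not stated in the sources used here, so p-values measure the spread between these sets.

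The libraries held 17571544 to 19894562 reads on genes. Myh9 was at 23.0, 22.6 and 22.0 FPKM (fragments per length of gene and depth of library) in CTRL and at 18.4, 20.0 and 17.7 FPKM in cKO LSKs, which is a log2 fold change of -0.26 (SE 0.049, limma adjusted p = 0.00642). Reads from outside the deleted exon still count toward this value, and 4 days after the first injection the Myh9 RNA was still at most of its control level. The markers that define the sort were present in every library: c-Kit (Kit) was at 23.9 ± 0.454 FPKM (mean ± SD, n = 3) in CTRL and 21.5 ± 0.334 in cKO LSKs, and Sca1 (Ly6a) at 95.4 ± 1.87 and 89.5 ± 3.63.

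In an integrin the α subunit largely sets which ligand is bound, and the β subunit carries the tail that connects to the actin cytoskeleton, on which non-muscle myosin pulls. α4β1 (VLA-4) binds VCAM-1 on bone marrow stroma and endothelium, α5β1 (VLA-5) binds fibronectin, α6β1 binds laminins, and α4β7 binds MAdCAM-1 and VCAM-1. The β2 integrins αLβ2 (LFA-1) and αMβ2 (Mac-1) are leukocyte receptors for the ICAM ligands. Most are held in a low-affinity state until talin and kindlin bind the β tail, a step called inside-out activation.

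The coding sequences of the 3 β tails are shown because these tails are where the measured β subunits meet talin and kindlin. They were read from GENCODE M21 transcripts on the GRCm38 build. Each runs 5′ to 3′ from a motif near the membrane to the last codon before the stop, within the last 2 coding exons. That motif is aspartate, arginine or leucine, arginine and glutamate, and any tail codons before it are left out. The capitals mark the codons of the pair of asparagine-proline-x-tyrosine or -phenylalanine motifs.
Itgb1 (chr8:128726130-128732085, plus strand, 120 bases): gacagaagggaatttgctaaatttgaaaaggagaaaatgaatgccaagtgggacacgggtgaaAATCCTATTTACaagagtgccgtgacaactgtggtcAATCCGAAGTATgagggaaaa
Itgb2 (chr10:77564748-77565237, plus strand, 117 bases): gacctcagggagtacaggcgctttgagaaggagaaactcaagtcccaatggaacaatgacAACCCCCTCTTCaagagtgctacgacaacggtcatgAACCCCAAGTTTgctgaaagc
Itgb7 (chr15:102216163-102216528, minus strand, 162 bases): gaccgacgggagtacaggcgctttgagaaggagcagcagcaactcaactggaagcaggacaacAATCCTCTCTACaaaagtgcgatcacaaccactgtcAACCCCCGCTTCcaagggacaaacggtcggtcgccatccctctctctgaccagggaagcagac

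All 3 tails hold both motifs with 24 bases between them. The encoded β1 tail ends both motifs with tyrosine, the β2 tail ends both with phenylalanine, and the β7 tail has 1 of each. Over the stretches shown, the β2 and β7 tails were the closest pair, with 23 of 39 aligned residues identical (59.0%), against 20 of 39 (51.3%) for β1 and β2 and 21 of 40 (52.5%) for β1 and β7. Each of the 6 α subunits encodes 1 glycine-phenylalanine-phenylalanine-lysine-arginine motif next to the membrane, which holds the α and β tails together at rest, followed by 17 codons in Itgam up to 46 in Itgal. The talin and kindlin motifs are thus common to the β members, and the motif next to the membrane to the α members.

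Across the 9 subunits, Itgal fell, Itgb2 rose, and Itgb1, Itgb7 and Itga6 fell by small amounts in Myh9-deficient LSKs. Itga4 and Itga5 did not pass the test, and Itgam and Itgav were too low to be tested. Of the 7 members tested (those that averaged 1 FPKM or more across all libraries), 1 was higher and 4 were lower at a limma adjusted p under 0.05, and among all 11552 genes tested 19.9% were higher and 20.6% lower. The median log2 fold change of the 7 was -0.17 and that of all genes tested was -0.0096, while the median size regardless of direction was 0.18 for the members and 0.15 for all genes. Groups did not overlap for 5 of the 7, against 54.0% of all genes. None of the 7 changed by more than 2-fold with an unadjusted p under 0.05, thresholds that 2.13% of all genes passed, although 6 of the 7 had an unadjusted p under 0.05 in limma. The changes were thus small and of the size common in this comparison.

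**Figure D1:**
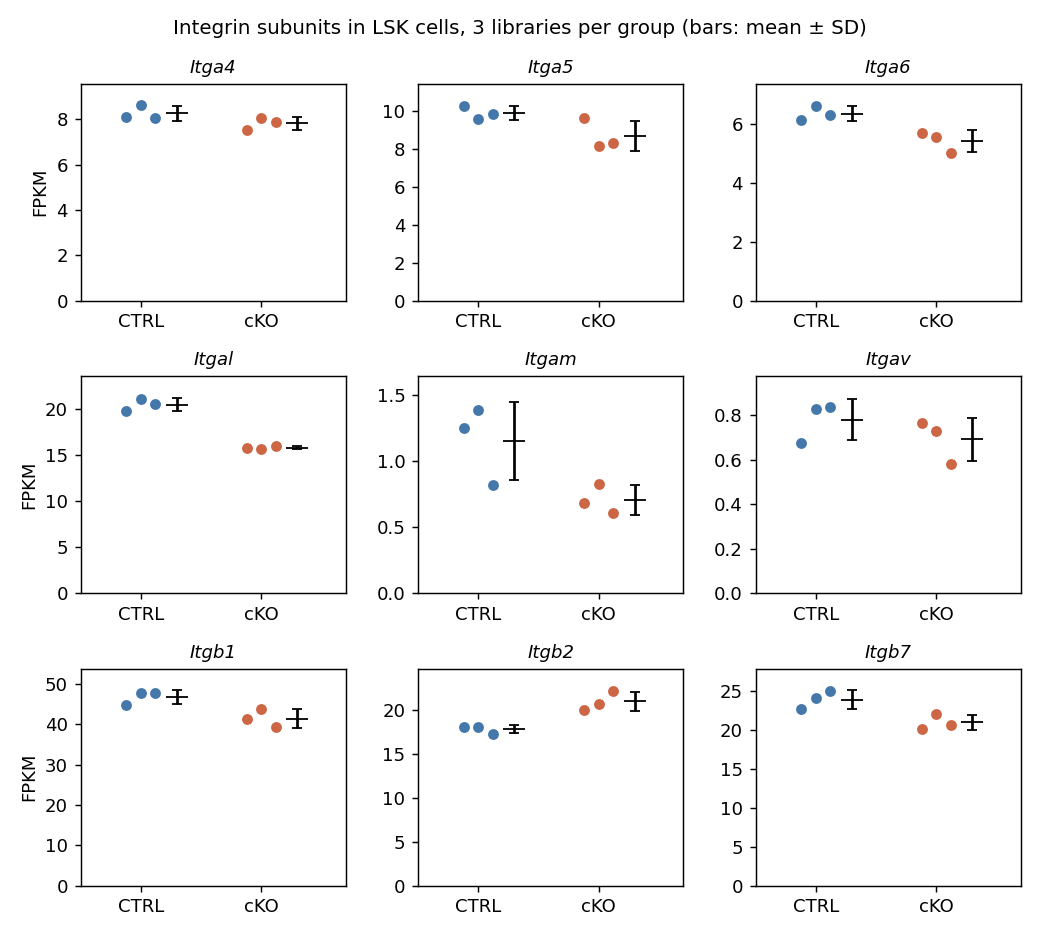
FPKM of the 9 integrin subunits in each library (points) for CTRL and cKO LSKs, with the mean ± SD of each group (black bars, n = 3) and every axis starting at 0. The groups are apart for Itga6, Itgal, Itgb1, Itgb2 and Itgb7, with Itgb2 the only one higher in cKO, and they overlap for Itga4, Itga5, Itgam and Itgav.

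**Figure D2:**
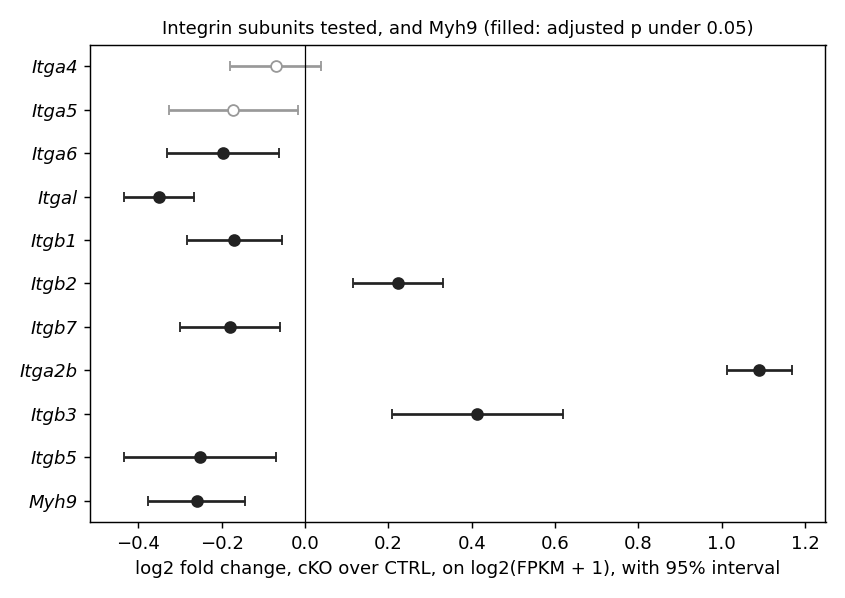
Log2 fold change of cKO over CTRL on log2(FPKM + 1) with its 95% interval, for the 7 members tested, for the other integrin subunits tested (Itga2b, Itgb3 and Itgb5) and for Myh9, filled where the limma adjusted p was under 0.05. Itgal lies at -0.35, Itgb2 at 0.22, and Itga2b at 1.09, beyond every member.

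Itgb1 (ENSMUSG00000025809, chr8:128685654-128733200, plus strand), the β1 partner of α4, α5, α6 and αv, was the most abundant member. Its FPKM was 44.7, 47.7 and 47.7 in CTRL and 41.2, 43.8 and 39.3 in cKO LSKs. Every Myh9-deficient library was below every control. The means were 46.7 ± 1.76 and 41.4 ± 2.25 FPKM, 11.3% lower, with a log2 fold change of -0.17 (SE 0.048, 95% interval -0.28 to -0.06, limma adjusted p = 0.0291). With 1 library left out the adjusted p missed the threshold 4 times, at 0.0886 without CTRL 2, 0.0867 without CTRL 3, 0.0764 without cKO 1 and 0.0764 without cKO 3.

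Itgb7 (ENSMUSG00000001281, chr15:102215995-102231944, minus strand), the other β partner of α4, was at 22.7, 24.1 and 25.0 FPKM in CTRL and at 20.2, 22.1 and 20.6 in cKO LSKs. The groups did not overlap, but the highest cKO library lay close to the lowest control. The means were 23.9 ± 1.19 and 21.0 ± 1.01 FPKM, 12.3% lower, and the log2 fold change was -0.18 (SE 0.050, interval -0.30 to -0.06, limma adjusted p = 0.0278). The adjusted p was 0.0771 without CTRL 2, 0.0825 without CTRL 3, 0.0837 without cKO 1 and 0.0786 without cKO 3.

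Of the α subunits that join these β chains, Itga6 fell and Itga4 and Itga5 did not pass the test. Itga4 (ENSMUSG00000027009, chr2:79255426-79333123, plus strand), which encodes α4, was at 8.09, 8.64 and 8.03 FPKM in CTRL and 7.50, 8.05 and 7.88 FPKM in cKO LSKs. The groups overlapped, and the log2 fold change of -0.07 (SE 0.046, interval -0.18 to 0.04) had a limma adjusted p of 0.265. Its sign turned, to 0.039 and 0.051, when trends with gene length or with GC content and length were removed.

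Itga5 (ENSMUSG00000000555, chr15:103344286-103366763, minus strand), the fibronectin receptor subunit, was at 10.3, 9.56 and 9.83 FPKM in CTRL and at 9.60, 8.15 and 8.29 in cKO LSKs. The first cKO library lay within the control range and the other two below it. The log2 fold change was -0.17 (SE 0.065, interval -0.33 to -0.02), with an unadjusted limma p of 0.0345 and an adjusted p of 0.0759. Without cKO 1 the adjusted p was 0.0152 with a log2 fold change of -0.24. With all libraries it also passed under TPM scaling (0.0485), with voom on recovered reads (0.0364) and with a replicate block (0.0493), so the call turns on 1 library and on the scaling and model.

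Itga6 (ENSMUSG00000027111, chr2:71745616-71858416, plus strand), the laminin receptor subunit, was at 6.14, 6.61 and 6.28 FPKM in CTRL and 5.69, 5.55 and 5.01 FPKM in cKO LSKs. All cKO values were below all controls. The means were 6.34 ± 0.240 and 5.41 ± 0.358 FPKM, and the log2 fold change of -0.20 (SE 0.056) had a limma adjusted p of 0.0314. This call was the least firm of the 4 falls: the adjusted p was 0.181 with the length trend removed, and it missed the threshold when CTRL 1 (0.0576), CTRL 2 (0.0984), CTRL 3 (0.0719), cKO 2 (0.0529) or cKO 3 (0.0739) was left out.

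Itgav (ENSMUSG00000027087, chr2:83724397-83806916, plus strand), the vitronectin receptor subunit, was among the lowest members, at 0.674, 0.829 and 0.839 FPKM in CTRL and 0.765, 0.730 and 0.580 in cKO LSKs. These values rest on 116 to 173 reads a library, the ranges overlapped, and an exact two-sided permutation test gave p = 0.3. With 3 libraries in each group this test cannot go below 0.1.

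Of the β2 integrin genes, Itgal fell and Itgb2 rose. Itgal (ENSMUSG00000030830, chr7:127296260-127335138, plus strand), which encodes the αL chain of LFA-1, was at 19.8, 21.1 and 20.5 FPKM in CTRL and at 15.8, 15.7 and 16.0 in cKO LSKs. The cKO values lay within a narrow range, well below the controls. The means were 20.5 ± 0.695 and 15.8 ± 0.154 FPKM, 22.7% lower, with a log2 fold change of -0.35 (SE 0.035, interval -0.44 to -0.27, limma adjusted p = 0.0004995). This fall passed the threshold in all 18 alternative analyses, with log2 fold changes from -0.38 to -0.28.

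Itgb2 (ENSMUSG00000000290, chr10:77530252-77565708, plus strand), the β2 chain shared by LFA-1 and Mac-1, was the member that rose. Its FPKM was 18.1, 18.1 and 17.3 in CTRL and 20.0, 20.7 and 22.2 in cKO LSKs, so every cKO library was above every control. The means were 17.8 ± 0.443 and 21.0 ± 1.13 FPKM, 17.7% higher, with a log2 fold change of 0.22 (SE 0.045, interval 0.11 to 0.33, limma adjusted p = 0.00887). It too passed in all 18 alternatives, with log2 fold changes from 0.18 to 0.25 and adjusted p up to 0.0338.

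Itgam (ENSMUSG00000030786, chr7:128062640-128118491, plus strand) encodes αM (CD11b), a chain of mature myeloid cells, and was low in these sorted cells. CD11b is among the lineage antigens in the study's progenitor stains, so cells that carry it are removed by a Lin- sort, which selects for a low level. It was at 1.25, 1.39 and 0.819 FPKM in CTRL and 0.680, 0.830 and 0.610 in cKO LSKs, from 57 to 125 reads. The third control fell just inside the cKO range, and the exact two-sided permutation test gave p = 0.2. In the fit without a filter on low values its log2 fold change was -0.33 (limma adjusted p = 0.149). The annotated gene Gm49368 shares 3450 exon bases on the same strand, 68.7% of the length of Itgam, and is listed at 0 in all libraries, so how reads were assigned between both genes makes the Itgam level uncertain.

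Since α and β chains are needed in pairs, the levels of partners were compared within each library. Both are FPKM, that is, per length of gene. In CTRL LSKs the FPKM of Itgb2 divided by that of Itgal was 0.914, 0.857 and 0.845, and in cKO LSKs it was 1.27, 1.32 and 1.39. Itgb2 was thus below Itgal in every control and above it in every Myh9-deficient library. The mean ratio was 0.872 ± 0.0368 against 1.33 ± 0.0598. The log2(FPKM + 1) difference between both genes moved by 0.57 (exact permutation p = 0.1, the smallest possible, 0.18 after Benjamini-Hochberg adjustment over 9 pairs), and by 0.54 to 0.61 with any 1 library left out. With the length of the principal transcript in place of the deposited length the ratio was 0.709 ± 0.0299 and 1.08 ± 0.0486, on either side of 1 as before.

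**Figure D3:**
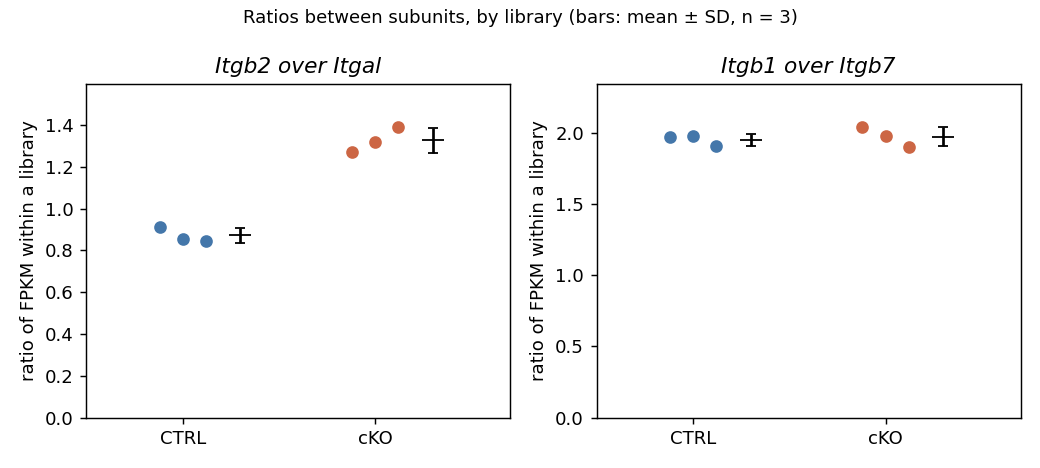
Ratio of FPKM within each library (points) for Itgb2 over Itgal (left) and Itgb1 over Itgb7 (right), with the mean ± SD of each group (n = 3). The Itgb2 to Itgal ratio is 0.845 to 0.914 in CTRL and 1.27 to 1.39 in cKO, while the Itgb1 to Itgb7 ratios overlap.

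Pairs with β1 and β7 moved less than the αL and β2 pair. The permutation p-values beside the FPKM ratios below are of the log2(FPKM + 1) difference, not of the ratio. The ratio of Itgb1 to Itgb7, both partners of α4, was 1.95 ± 0.0405 in CTRL and 1.97 ± 0.0687 in cKO LSKs (exact permutation p = 0.9). Against Itga4, the ratio of Itgb1 went from 5.66 ± 0.243 to 5.31 ± 0.279 and that of Itgb7 from 2.90 ± 0.186 to 2.69 ± 0.0653, both without overlap (exact permutation p = 0.1 for each, 0.18 adjusted). Ratios of Itgb1 to Itga5 (4.73 ± 0.336 and 4.80 ± 0.541) and to Itga6 (7.36 ± 0.205 and 7.66 ± 0.357) overlapped. For Itgb1 and Itgav the log2(FPKM + 1) difference moved by -0.095 without overlap (exact permutation p = 0.1, 0.18 adjusted). Their FPKM ratios, 60.2 ± 5.25 and 60.5 ± 6.94, did not differ beyond their spread, so that move rests on the pseudocount. Itgb2 over Itgam was 16.2 ± 4.33 and 30.3 ± 5.80 without overlap (exact permutation p = 0.1, 0.18 adjusted), on the few reads of Itgam.

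The make-up of the α pool followed these changes. The summed FPKM of the 6 α members was 46.2, 48.2 and 46.3 in CTRL and 40.0, 39.0 and 38.4 in cKO LSKs, without overlap. Itgal was the largest part in both groups, at 43.7% ± 0.775 of the α sum in CTRL and 40.5% ± 1.16 in cKO. The share of Itga4 went the other way, from 17.6% ± 0.302 to 20.0% ± 1.06, although its own level did not pass the test. Shares of Itga5, Itga6, Itgam and Itgav overlapped between groups.

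The summed FPKM of the 3 β members overlapped, at 88.5 ± 2.65 in CTRL and 83.4 ± 2.80 in cKO LSKs. Within it, Itgb2 went from 20.2% ± 0.956 to 25.2% ± 1.66, Itgb1 from 52.8% ± 0.413 to 49.7% ± 1.59 and Itgb7 from 27.0% ± 0.660 to 25.2% ± 0.379, none overlapping. Each of these had an exact permutation p of 0.1, and 0.183 after Benjamini-Hochberg adjustment over 11 sums and shares. The β sums thus overlapped between groups, while the Itgb2 part was larger in every cKO library.

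**Figure D4:**
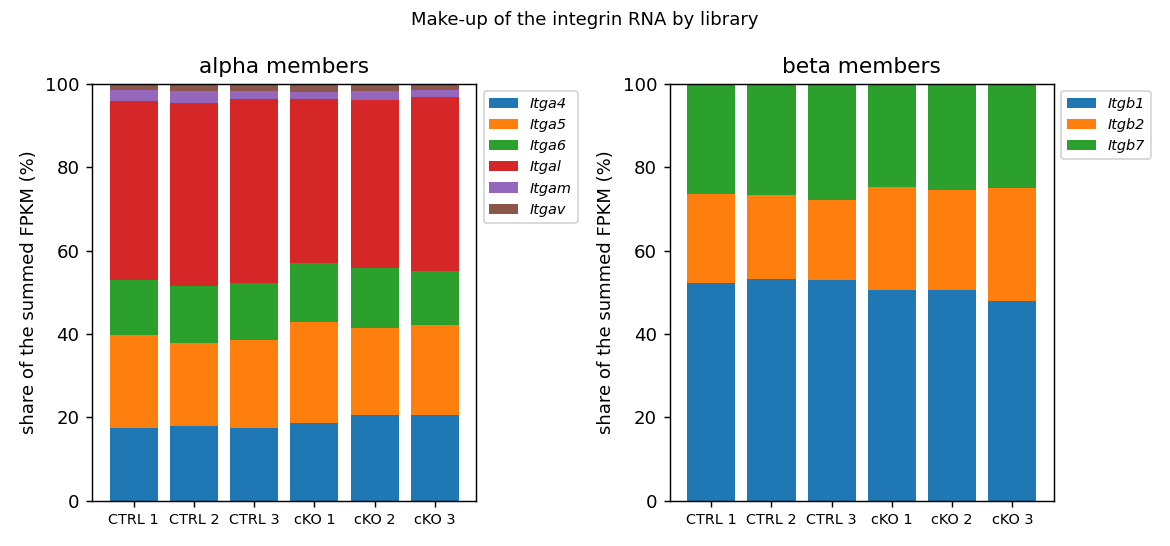
Share of each subunit in the summed FPKM (%) of the 6 α members (left) and of the 3 β members (right), 1 bar for each library. Itgal and Itgb1 make up the largest parts in all 6 libraries, and the Itgb2 part is taller in the cKO bars (23.9 to 27.1%) than in the CTRL bars (19.2 to 21.1%).

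By level, the order in CTRL LSKs was Itgb1, Itgb7, Itgal, Itgb2, Itga5, Itga4, Itga6, Itgam and Itgav, from 46.7 to 0.781 FPKM, and only Itgam and Itgav had overlapping ranges. In cKO LSKs Itgb2 and Itgb7 came next to Itgb1 at 21.0 FPKM each and did not differ beyond their spread, followed by Itgal at 15.8 FPKM. The order of α subunits depends on gene length, since the deposited length joins the exons of all transcripts and for Itga6 is 2.09 times that of its principal transcript. On principal transcript lengths, in CTRL LSKs, Itga6 was at 13.3, Itga4 at 11.8 and Itga5 at 11.1 FPKM, and Itgal at 25.9 was above Itgb7 at 24.7. The filter on low values, the pseudocount and the shares of the α and β sums depend on the length too, and on principal lengths Itgam (means 1.25 and 0.763 FPKM in CTRL and cKO) and Itgav (1.19 and 1.05) would reach the 1 FPKM of the filter.

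Several members lie near each other. Itgal and Itgam are 0.728 Mb apart on chromosome 7 and Itga5 and Itgb7 1.11 Mb apart on chromosome 15, while Itga6, Itga4 and Itgav lie within chromosome 2, with 7.40 Mb between Itga6 and Itga4 on one hand and 4.39 Mb between Itga4 and Itgav on the other. The close pair Itga5 and Itgb7 had log2 fold changes of -0.17 and -0.18. Opposite-strand genes share exon bases with Itga4 (Cerkl, 8.04% of its length) and Itgav (Gm13684, 5.90%), and since the library kit does not mark strand their reads cannot be told apart there.

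Of the other 17 integrin subunits 3 were abundant enough to test. Itga2b, the αIIb chain (CD41) of the megakaryocyte and platelet fibrinogen receptor, rose from 17.0 ± 0.524 to 37.3 ± 0.470 FPKM (log2 fold change 1.09, SE 0.033, limma adjusted p = 4.46e-06). Its partner Itgb3 rose from 2.55 ± 0.211 to 3.73 ± 0.441 FPKM (0.41 on the log2 scale, adjusted p = 0.00970). Itgb5, a partner of αv, fell from 5.09 ± 0.481 to 4.10 ± 0.298 FPKM (-0.25 on the log2 scale, adjusted p = 0.0369, and up to 0.113 in the alternatives). The αIIb and β3 chains thus rose both, by unequal amounts. Markers of megakaryocytes and platelets were higher as well: 3 of the 3 tested were higher, against 19.9% of all genes, and the summed FPKM of the 8 listed went from 43.8 to 47.4 in CTRL to 93.4 to 98.3 in cKO LSKs. Their part in the rise of Itga2b and Itgb3 was not tested.

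Genes that act on integrins were grouped in 8 lists of 140 genes in all, the other subunits included, of which 92 were tested, 20 were higher (21.7%, against 19.9% of all genes) and 28 were lower (30.4%, against 20.6%). The balance depends on the processing: without a filter on low values 23 were higher and 20 lower, and under quantile normalization 17 and 31. Among 16 genes that drive inside-out activation 12 were tested, 2 rose and 6 fell, with a median log2 fold change of -0.12. Cyth1 (cytohesin-1), which binds the β2 tail, fell from 17.9 ± 0.981 to 10.7 ± 0.239 FPKM (-0.69 on the log2 scale, limma adjusted p = 9.78e-05). Rasgrp2, the exchange factor that loads Rap1, and Stk4 (Mst1), a kinase in the Rap1 route to LFA-1, fell with log2 fold changes of -0.32 and -0.25.

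The RNAs of talin and kindlin, whose proteins bind the motifs printed above, were looked at singly. Fermt3 (kindlin-3), the kindlin of blood cells, rose from 164 ± 4.07 to 178 ± 4.19 FPKM (0.11 on the log2 scale, adjusted p = 0.0222), and this passed the threshold in 11 of 18 alternatives, with adjusted p up to 0.313 under quantile normalization. Tln1 (talin-1), named here after its value was seen, fell from 42.7 ± 1.56 to 37.0 ± 1.16 FPKM (-0.20 on the log2 scale, adjusted p = 0.00679). The fall of Tln1 passed in all 18 alternatives, but its size ranged from -0.23 to -0.10, with adjusted p up to 0.0454. Fyb (ADAP), an adaptor of inside-out activation, was higher by 0.15 on the log2 scale (adjusted p = 0.0473), which passed in 10 of 18 alternatives.

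Of 10 genes that restrain activation 8 were tested, 2 rose (25.0%, against 19.9% of all genes) and 1 fell (12.5%, against 20.6%), with a median of -0.045. On 8 genes these shares are near those of all genes. Dok2, an adaptor of the family that competes with talin at β tails, rose from 9.78 ± 0.857 to 15.4 ± 1.21 FPKM (0.61 on the log2 scale, adjusted p = 0.00119). Itgb1bp1 (ICAP-1), which binds the β1 tail, also rose, with 0.24 on the log2 scale (adjusted p = 0.0222, up to 0.0709 in the 3 of 18 alternatives where it missed the threshold). Rasa3, which inactivates Rap1, fell from 22.6 ± 0.262 to 17.7 ± 0.444 FPKM (-0.34 on the log2 scale, adjusted p = 0.000393).

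In the list of adhesion complex and outside-in signalling genes, which carry the signal from a bound integrin, 29 of 36 were tested, none was higher at an adjusted p under 0.05 in limma and 15 were lower (51.7%, against 20.6% of all genes), with a median of -0.13. Git2, a scaffold of the paxillin complex, had the lowest log2 fold change at -0.41 (8.47 ± 0.135 to 6.12 ± 0.0630 FPKM), followed by Vav1, an exchange factor for Rac, at -0.36 (55.3 ± 0.297 to 42.9 ± 1.17 FPKM) and Tns3 (tensin-3) at -0.35. Of the 12 tetraspanins and membrane partners, all tested, 9 rose (75.0%, against 19.9% of all genes) and none fell, with a median of 0.18. Tspan33 rose from 2.98 ± 0.0996 to 6.01 ± 0.404 FPKM (log2 fold change 0.81), Cd9 from 19.9 ± 1.49 to 28.9 ± 0.216 (0.52) and Cd81 from 39.3 ± 1.00 to 53.6 ± 2.96 (0.43), the last a partner of β1 integrins in the membrane.

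**Figure D5:**
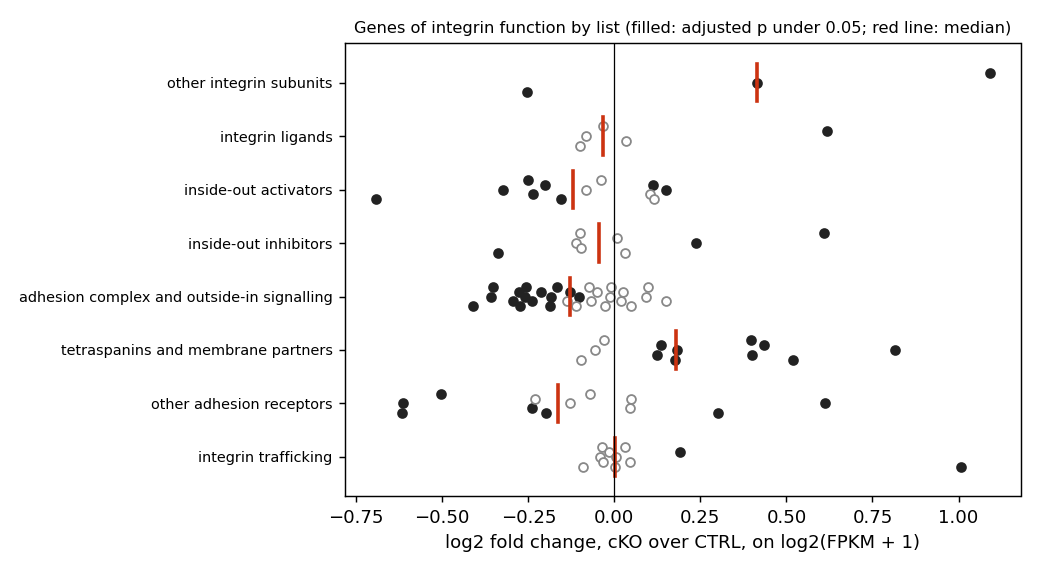
Log2 fold change of cKO over CTRL on log2(FPKM + 1) for each tested gene of 8 lists of integrin function (points, filled where the limma adjusted p was under 0.05), with the median of each list (red line). All 15 filled points of the adhesion complex list lie left of 0 and all 9 of the tetraspanin list right of 0.

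Most ligand genes were too low to be tested in the sorted cells: 5 of 23 were tested, 1 rose (20.0%, against 19.9% of all genes) and none fell, with a median of -0.032. F11r (JAM-A), a ligand of LFA-1, rose from 2.22 ± 0.405 to 3.92 ± 0.332 FPKM (0.62 on the log2 scale, limma adjusted p = 0.00425). Icam4, Madcam1, Vtn, Fga, Fgb and Fgg were listed at 0 in every library, where 3 reads in a gene of 1 kb would be 0.151 to 0.170 FPKM. Among 14 other adhesion receptors 12 were tested, 2 rose (16.7%, against 19.9% of all genes) and 5 fell (41.7%, against 20.6%), with a median of -0.16. Selplg (PSGL-1), the P-selectin ligand on blood cells, fell from 56.8 ± 1.71 to 36.8 ± 2.30 FPKM (log2 fold change -0.61). Pecam1 fell from 19.6 ± 0.382 to 12.4 ± 0.484 FPKM (-0.62), while Esam rose from 1.80 ± 0.277 to 3.28 ± 0.404 (0.61) and Cd24a from 99.1 ± 0.666 to 122 ± 2.89 (0.30). Of 12 genes of integrin trafficking 11 were tested, 2 rose (18.2%, near the 19.9% of all genes) and none fell, with a list median of 0.0030. Those that rose were Rab4a (11.2 ± 0.768 to 23.5 ± 0.184 FPKM, log2 fold change 1.01) and Rab11a (0.19), both small GTPases of recycling endosomes.

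In bulk RNA, fewer cells of a type and less RNA per cell cannot be told apart, and markers of several cell types differed between the groups. The study's lineage stain holds CD3, CD4, CD8, B220, Gr-1, CD11b and Ter119, which takes most mature T, B, myeloid and erythroid cells out of a Lin- gate. Of 13 markers of neutrophils and monocytes, cells that carry much LFA-1 and Mac-1, 12 were tested, with a median log2 fold change of -0.65. Of the 12, 1 rose (8.33%, against 19.9% of all genes) and 9 fell (75.0%, against 20.6%). Their summed FPKM went from 882 to 916 in CTRL to 484 to 523 in cKO LSKs, led by Ly6c2 (361 ± 18.9 to 131 ± 9.23) and Lyz2 (230 ± 5.08 to 133 ± 2.87), while the neutrophil marker Ly6g was at 0.778 ± 0.513 and 0.897 ± 0.311 FPKM. On the log2 scale the largest falls were of Cd14 (-2.26), Csf1r (-1.46) and Ly6c2 (-1.45). Those of Camp (-0.63), Ngp (-0.35) and S100a9 (-0.18) were smaller, and S100a8 did not pass (-0.020, limma adjusted p = 0.885). Mmp9, the gene that rose, was at 0.969 FPKM in CTRL and passed the filter through its cKO level of 1.67 FPKM. In the same libraries Itgal was lower and Itgb2 higher, and the part of these cells in their levels was not tested.

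All 10 erythroid markers rose, with a summed FPKM of 572 to 579 in CTRL and 1011 to 1054 in cKO LSKs. For this count and those that follow, 19.9% of all genes tested were higher and 20.6% lower. Mast cell and basophil markers had 5 higher and none lower among the 6 tested of 8, with sums of 90.3 to 102 and 149 to 159. Of 11 T and NK markers 2 were tested, Ccl5 higher and Nkg7 lower, and the sums of 361 to 373 and 320 to 324 were mostly Nkg7, with Cd3e at 0 in all CTRL libraries and at 0.234 ± 0.0496 FPKM in cKO. Of 9 B and plasma cell markers 6 were tested, 3 higher and 2 lower (sums 132 to 137 and 154 to 159). Of 9 dendritic markers the 3 tested, the antigen presentation genes H2-Ab1, H2-Aa and Cd74, were higher, and the sums (16.6 to 16.8 and 50.6 to 53.4) were mostly theirs. Of those too low to test, Clec9a was lower in cKO (0.473 ± 0.0963 to 0.104 ± 0.0892 FPKM) and Zbtb46 higher (0.297 ± 0.0995 to 0.550 ± 0.0326), both without overlap. The rest overlapped, so the list did not move in 1 direction. Of 10 endothelial and stromal markers 1 was tested and did not pass (sums 6.23 to 7.23 and 7.49 to 8.03). Among 9 LSK genes 8 were tested, 4 rose, including Flt3 (19.8 ± 0.780 to 30.1 ± 1.18 FPKM) and Procr (2.80 ± 0.129 to 5.09 ± 0.691), and Kit fell. Cma1 (0.360 FPKM in CTRL and 4.63 in cKO), Fcer1a (0.511 and 1.75), Hba-a1 (0.812 and 3.47), Cd79a (0.743 and 1.52) and H2-Aa (0.652 and 5.43) were under 1 FPKM in CTRL. They passed the filter only through their cKO level, so the filter left only a call of higher open to them. The part of these cell types in the integrin levels was not tested.

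For each member past the threshold, the 2 genes with the most similar pattern over the 6 libraries were found among 7054 genes. Similarity was the root mean square difference of centred log2(FPKM + 1) values. These genes averaged 5 FPKM or more, and the members, Myh9 and all genes of the pathway and marker lists were left out. Nearest to Itgb1 were Siah2 (0.00665) and Frat2 (0.0133), and to Itgb2 Bms1 (0.0101) and Txnl1 (0.0184). Nearest to Itgal were Swap70 (0.0178) and Glud1 (0.0189), to Itgb7 Timm29 (0.0172) and Kif18b (0.0195), and to Itga6 Mcm4 (0.0255) and Incenp (0.0255). No gene was nearest to more than 1 member, and likeness between members was not looked at in this search.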

How the data were processed

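RNA-seq of LSK cells covered 3 CTRL and 3 cKO libraries. The authors deposited FPKM for each gene and library, scaled by gene length, and the submitters' processing notes name HISAT2 2.0.5 and mm10. The counting program is not given in the sources used here. Multiplied by length, 100% of the FPKM values came to whole numbers of reads (tolerance 0.05), which gave the depth. Genes averaging 1 FPKM or more were fitted on log2(FPKM + 1), a scale that understates changes of low genes, with limma 3.58.1 (eBayes with trend, R 4.3.3, two-sided) and Benjamini-Hochberg adjustment over all 11552 genes. The test was checked on simulated data. Partner differences of log2(FPKM + 1) and shares were compared by exact permutation, and partner ratios are given as description. Lengths, exons and tails came from GENCODE M21 (GRCm38), and promoters and proteins were not used here. Tails, over the stretches shown, were aligned on their translated codons. Python 3.11.15, pandas 2.3.3 and numpy 2.4.6 were used.

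The members and gene lists were chosen with earlier results of these data known. Text names all members, Myh9, the other integrin subunits tested, up to 3 genes in each direction for each list, the 2 genes nearest each called member, and, of markers, the defining and most abundant ones. Tln1 and all other single markers in the text (among them Ly6g, Cd3e, Ccl5, Flt3 and Procr) were named after their values were seen. One gene of the list of other adhesion receptors is counted but not reported here.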

Additional observations from a re-analysis of the deposited data

How the results depend on the processing

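The rise of Itgb2 and the falls of Itgal and Myh9 kept their direction and passed the threshold in all 18 alternatives. The log2 fold change of Myh9 ranged from -0.31 to -0.145, with limma adjusted p up to 0.0388. Of the other members, Itgb7 passed in 12, Itgb1 in 10, Itga6 in 8, Itga5 in 4 and Itga4 in 0, so the number of members lower, 4, moved both ways. It was 5 under TPM scaling, 1 without a filter on low values, 1 without moderation of the variance, 2 with the length trend removed, 2 with GC and length trends removed (chosen after seeing the data), and 1 to 3 with 1 library left out. The number of members higher was 1 and the number past 2-fold 0 in each. Itga4, not called, reversed to 0.039 with the length trend removed and to 0.051 with both trends removed, and the difference between Itgav and Itgb1 reversed to 0.0042 without a pseudocount. The cause was not tested. Deposited values already had equal median-of-ratios factors, so that scaling changed nothing by construction.

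Libraries sharing a replicate number did not deviate together (correlations -0.0046, -0.011 and -0.026), so the numbers were not taken as pairs. With a replicate block 1 member was higher and 4 lower, as without it, but the adjusted p of Itga6 was 0.0544 and that of Itga5 0.0493 (log2 fold changes -0.20 and -0.17 as before).

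Itgam and Itgav, at 57 to 173 reads, were left out by the filter on FPKM, and the calls lost in some alternatives were those of the members that fell by 11.3 to 14.7%.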
